A study of Rattus norvegicus with 144 samples.

Results

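The cytosolic ribosomal protein genes are described here in the blood of rats given acetaminophen, an analgesic that damages the liver in overdose. They were chosen by name, as every probe whose gene symbol starts with Rpl or Rps and a digit, or with Rplp, apart from the Rps6 kinases. This gave 56 probes for 50 genes, 30 of the large subunit and 20 of the small subunit, among 14678 features (8354 of them named genes) with enough values to be tested. All 50 genes passed that filter on missing values, and 6 of them had 2 probes.

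The animals were male F344/N rats aged 10 to 12 weeks. They received 0 mg/kg (the vehicle alone, 0.5% ethyl cellulose), 150, 1500 or 2000 mg/kg acetaminophen by gavage, split over a pair of doses, and were killed after 3, 6 or 24 h, with 6 rats in each of the 12 groups. Blood RNA of each rat went onto 2 arrays, once in either dye, together with a pool made from the blood RNA of the 6 vehicle rats killed at the same time, so vehicle rats were themselves part of the pool. Every value is therefore the log2 ratio of a rat to its pool, a relative level that cannot be compared between genes, and doses at a time share their vehicle rats. The scale (log10 as deposited) and the direction (Cy5 over Cy3) are likely but not stated in the sources used here. The values have the number format of a scanner's log ratio column, which by convention is log10 of Cy5 over Cy3, and the format alone does not show which dye is on top. If the ratios ran the other way every fall given below would be a rise and every rise a fall, and another log base would change the folds and log2 values by a common factor on the log scale but not the p-values or counts.

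Each ribosome joins a small subunit, which reads the messenger RNA, to a large subunit, which forms the peptide bond, and most of its proteins occur in it once. Messenger RNAs of ribosomal proteins begin with a run of pyrimidines, the terminal oligopyrimidine (TOP) tract, through which mTOR signalling controls their translation and stability as a group. In blood these messenger RNAs are abundant in lymphocytes and in young red cells that still hold RNA. In whole blood, fewer cells of a type and less RNA per cell cannot be told apart.

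Arrays fell into 2 kinds, 91 lacking 500 of the features and 53 holding them, and the kinds were not spread evenly over the groups at 3 h and 6 h. At 24 h all vehicle rats had both arrays of the kind lacking the features, as did all treated rats but 1. Since ratios carry no level, the labelled tissue could not be checked by how high its markers stood, and no marker could be read as absent.

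A single rat of the 1500 mg/kg group at 6 h stood apart from its group. Its median over the 50 genes was 0.21, while the other 5 rats lay between -0.49 and -0.41. Both of its arrays gave a positive median, 0.24 with the rat in Cy3 and 0.19 with the rat in Cy5. The same rat had mean log2 ratios of 0.17 over 10 T cell markers and 0.24 over 6 B cell markers, against -1.07 to -0.40 and -1.03 to -0.45 in the other 5 rats. Results at that dose and time are given with and without it.

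At 3 h after 2000 mg/kg, 26 of the 50 genes fell and none rose (limma, adjusted p under 0.05 over all features). Over all features 8.32% fell in that comparison. The members that fell were 1.21-fold to 2.31-fold lower than in vehicle rats. The median log2 difference of the 50 genes was -0.46, with 46 of 50 below 0, against a median of 0.03 over all features tested. Every treated rat lay below every vehicle rat for 18 of the 50 genes, which held for 5.97% of all features.

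Genes of both subunits fell. Of the large subunit 15 of 30 genes fell, with a median of -0.47, and of the small subunit 11 of 20, with a median of -0.44. Rat by rat, the large-subunit median ran from -0.74 to -0.42 at 2000 mg/kg, against -0.24 to 0.19 in vehicle rats. For the small subunit the corresponding ranges were -0.64 to -0.19 at 2000 mg/kg and -0.20 to 0.19 in vehicle rats. The large-subunit median of the treated rats never reached that of a vehicle rat, whereas the small-subunit ranges met at their ends. Gene by gene, all treated rats lay below all vehicle rats for 13 of the 30 large-subunit and 5 of the 20 small-subunit genes. The difference between subunits was not tested.

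**Figure D1:**
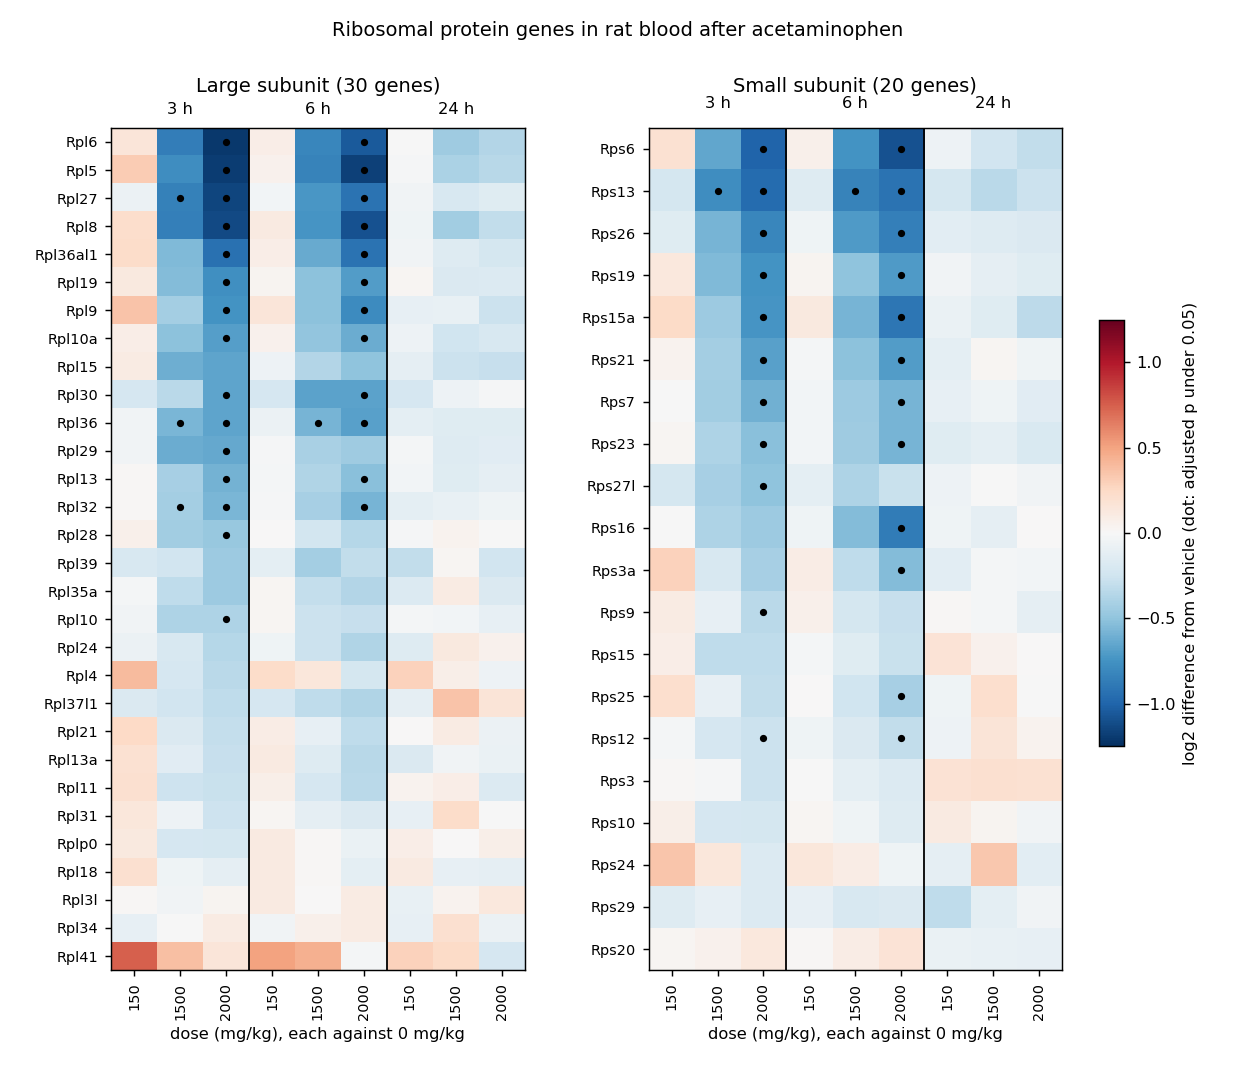
Log2 difference of each ribosomal protein gene from the vehicle rats of the same time, in colour, for 150, 1500 and 2000 mg/kg (columns) at 3, 6 and 24 h. Large-subunit genes stand left, small-subunit genes right, ordered by the 2000 mg/kg difference at 3 h, and a dot marks an adjusted p under 0.05. Dots lie in the 2000 mg/kg columns of 3 h (26 genes) and 6 h (24 genes), with 4 and 2 at 1500 mg/kg and none at 150 mg/kg or at 24 h.

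The 4 largest falls at 3 h were all in the large subunit. Rpl6, a large-subunit protein, ranged from -1.70 to -0.87 (median -1.23) at 2000 mg/kg, against -0.32 to 0.18 (median -0.06) in vehicle rats. The ranges were apart, and the difference was -1.21 ± 0.25 (SE; adjusted p = 0.000556). Rpl5 carries 5S ribosomal RNA into the large subunit and, when ribosome assembly is disturbed, binds the p53 inhibitor Mdm2. It lay between -1.74 and -1.28 (median -1.43) at 2000 mg/kg and between -0.55 and 0.15 (median -0.30) in vehicle rats. These ranges were apart as well, by -1.19 ± 0.28 (SE; adjusted p = 0.00243).

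Rpl27, a large-subunit protein, was between -1.55 and -0.72 (median -0.99) at 2000 mg/kg and between -0.25 and 0.48 (median 0.09) in vehicle rats. No treated rat reached the vehicle range (-1.15 ± 0.19, SE; adjusted p = 3.69e-05), and its 2 probes gave -1.13 and -1.17. Rpl8 lies close to the catalytic centre of the large subunit. Its range was -1.57 to -1.09 (median -1.33) at 2000 mg/kg and -0.44 to 0.07 (median -0.27) in vehicle rats, a difference of -1.12 ± 0.27 (SE; adjusted p = 0.00255) without overlap.

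Among small-subunit genes Rps6, whose protein is the substrate of the S6 kinases, ranged from -1.38 to -0.79 (median -1.15) at 2000 mg/kg and from -0.35 to 0.21 (median -0.20) in vehicle rats. The difference was -1.0 ± 0.20 (SE; adjusted p = 0.000408), again without overlap. Rps13, a small-subunit protein, fell by a similar size (-0.96 ± 0.21, SE; adjusted p = 0.000914) but less evenly. Its treated rats lay between -1.28 and -0.09 (median -0.56) and its vehicle rats between -0.14 and 0.66 (median 0.46), so these ranges overlapped. Rpl36, of the large subunit, was between -0.89 and -0.13 (median -0.39) at 2000 mg/kg and between -0.09 and 0.60 (median 0.21) in vehicle rats, with a difference of -0.66 ± 0.15 (SE; adjusted p = 0.00214).

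**Figure D2:**
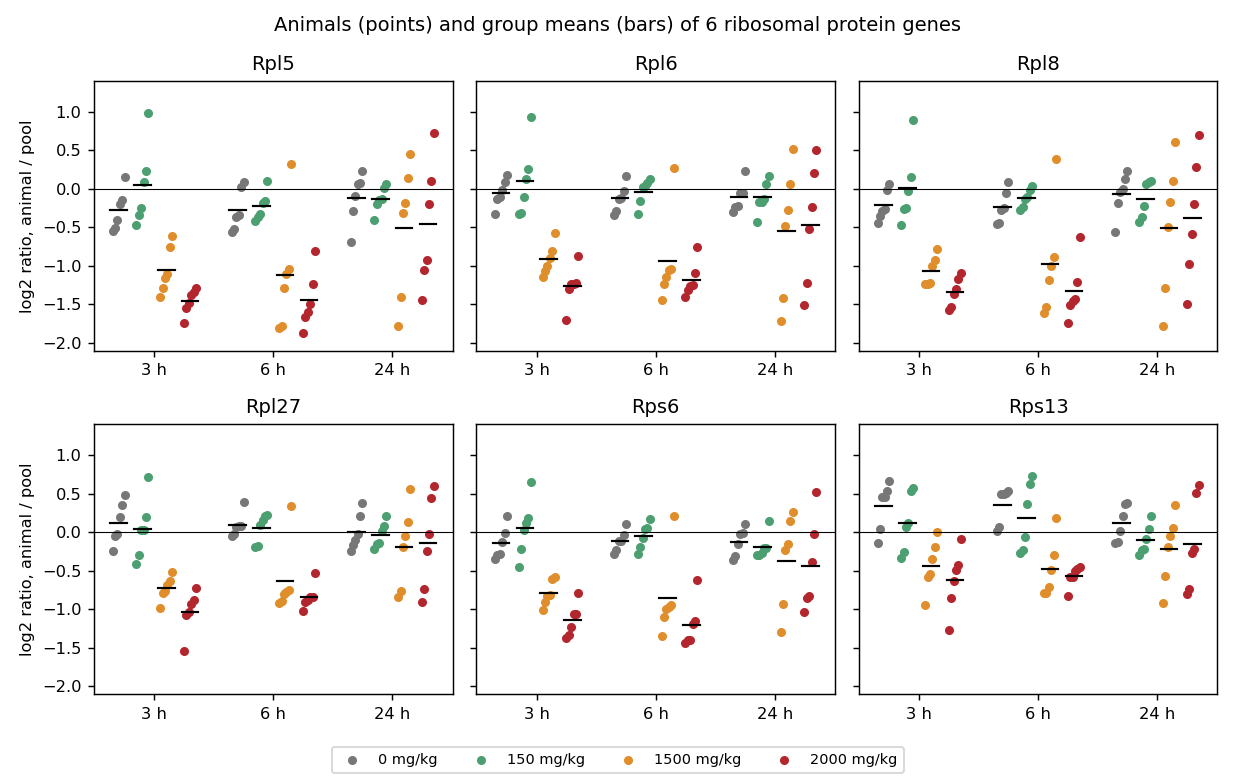
Log2 ratio of each rat to the vehicle pool (points) and the mean of each group (bars) for 6 ribosomal protein genes, at 3, 6 and 24 h (x axis), with 0, 150, 1500 and 2000 mg/kg from left to right within a time. At 3 h the 2000 mg/kg rats lie below all vehicle rats for 5 of the 6 genes, Rps13 being the exception, at 6 h 1 rat of the 1500 mg/kg group stands above the others, and at 24 h the treated rats spread widely (Rpl5 at 2000 mg/kg from -1.44 to 0.73).

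Several members are also known for roles outside the ribosome. Rpl11, the partner of Rpl5 on 5S ribosomal RNA and at Mdm2, had a difference of -0.28 ± 0.12 (SE; adjusted p = 0.152). Rps7, another Mdm2-binding protein, fell by 0.60 (SE 0.14, adjusted p = 0.0028), and Rps3, which lines the messenger RNA entry and also takes part in DNA repair, differed by -0.27 ± 0.15 (SE; adjusted p = 0.307). Rps19, the gene most often mutated in the inherited anaemia Diamond-Blackfan in humans, fell by 0.75 (SE 0.17, adjusted p = 0.0021). Rpl13a, which silences inflammatory messenger RNAs in human monocytes once released from the ribosome, differed by -0.29 ± 0.12 (SE; adjusted p = 0.135).

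The stalk is the part of the large subunit that recruits translation factors, and Rplp0, its base, differed by -0.22 ± 0.15 (SE; adjusted p = 0.433). Its 2 probes gave -0.29 (adjusted p = 0.0235) and -0.16 (adjusted p = 0.793), so 1 of them passed when tested on its own. The stalk proteins Rplp1 and Rplp2, the Mdm2 binders Rpl23 and Rps14, and Rpl38 and Rps27a were not named on any probe used here.

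Paralogues gave mixed values. Rpl36al1, a close relative of Rpl36a, fell by 0.93 (SE 0.19, adjusted p = 0.000339), and its 2 probes gave -0.94 and -0.93. Rps27l, a relative of Rps27 that p53 switches on in human cells, fell by 0.51 (SE 0.12, adjusted p = 0.0017). Rpl37l1 differed by -0.31 ± 0.14 (SE; adjusted p = 0.181), and Rpl3l, the muscle counterpart of Rpl3, by 0.04 ± 0.13 (SE; adjusted p = 0.913). Probes of such look-alikes can pick up the RNA of the parent gene, and this was not tested.

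Few genes went against the rest. Rpl34, Rpl3l and Rps20 had the opposite sign to the median of the 50 genes at 2 or 3 of the times after 2000 mg/kg. Rps20 lies in the head of the small subunit and differed by 0.13 ± 0.08 at 3 h, 0.17 ± 0.08 at 6 h and -0.10 ± 0.08 at 24 h (SE). Rpl34 differed by 0.10, 0.11 and -0.07, and Rpl3l by 0.04, 0.10 and 0.13, and none of these passed. The probes of Rpl34 and Rps20, and that of Rps3, were annotated to a sequence other than a RefSeq transcript, unlike all other member probes. Whether these probes read the named genes was not tested. Rpl41, the smallest ribosomal protein, was the member with the highest difference at 3 h, 0.15 ± 0.24 (SE; adjusted p = 0.786).

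Starts of 11 members are printed to show what precedes the messenger RNA of genes that fell and of genes that did not. They are the 40 bases before and 20 bases from the transcript start given by RefSeq (GRCr8, written in the direction of transcription). Capitals mark CTTTCC and CTCTTT, pyrimidine runs of the kind found in TOP tracts, which overlap by CTTT and were chosen after the sequences had been seen.
Rpl5 (chr14:1995206-1995265, minus strand): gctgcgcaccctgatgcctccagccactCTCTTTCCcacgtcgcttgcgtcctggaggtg
Rps13 (chr1:180009641-180009700, minus strand): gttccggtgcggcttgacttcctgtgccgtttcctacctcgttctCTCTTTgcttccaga
Rpl36al1 (chr6:93392239-93392298, minus strand): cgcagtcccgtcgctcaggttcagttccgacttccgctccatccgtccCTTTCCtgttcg
Rpl19 (chr10:83519024-83519083, plus strand): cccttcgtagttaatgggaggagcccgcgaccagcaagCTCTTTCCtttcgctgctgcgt
Rps7 (chr6:50999426-50999485, minus strand): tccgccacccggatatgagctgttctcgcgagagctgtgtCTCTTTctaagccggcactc
Rpl13a (chr1:104748894-104748953, minus strand): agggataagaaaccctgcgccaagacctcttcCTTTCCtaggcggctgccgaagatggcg
Rps24 (chr16:96477-96536, plus strand): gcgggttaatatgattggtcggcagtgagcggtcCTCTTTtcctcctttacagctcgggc
Rps6 (chr5:106420521-106420580, minus strand): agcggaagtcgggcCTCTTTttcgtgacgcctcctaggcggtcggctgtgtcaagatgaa
Rpl36 (chr9:1533740-1533799, plus strand): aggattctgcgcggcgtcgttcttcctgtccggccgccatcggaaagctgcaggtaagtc
Rpl34 (chr2:221962264-221962323, minus strand): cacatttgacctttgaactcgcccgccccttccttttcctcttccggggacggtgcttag
Rpl3l (chr10:14258406-14258465, plus strand): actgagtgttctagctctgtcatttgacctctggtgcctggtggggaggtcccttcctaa

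The first 5 fell at 3 h after 2000 mg/kg and hold a marked run across or close to the start. Rpl13a and Rps24 hold one there as well and did not pass. Rps6 and Rpl36 also fell without a marked run from 10 bases before to 20 bases after the start. Rps6 does hold a marked run further before its RefSeq start, and whether that start is the true one was not tested. Rpl34 and Rpl3l did not pass and have no marked run there. The start of Rpl34 nevertheless lies in an unbroken stretch of pyrimidines that holds neither of the marked strings. RefSeq starts were found for 40 of the 50 genes, and those of Rpl8, Rpl15, Rpl27, Rpl30, Rpl32, Rpl37l1, Rps9, Rps20, Rps25 and Rps29 are not shown.

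From 10 bases before to 20 bases after the start, 19 of the 40 genes (47.5%) held either run on the transcribed strand, against 2.09% of 33469 RefSeq starts. On both strands it was 50% of members and 4.19% of all starts, and over the whole RefSeq window, 250 bases before to 50 after the start, on both strands 82.5% of members and 42% of all. Of the 19 genes with a marked run near the start 13 fell at 3 h after 2000 mg/kg (median -0.59), and of the 21 without one 8 fell (median -0.34). Lacking a marked run is not lacking pyrimidines, since Rpl34 and Rps15, among the 21, hold other pyrimidine stretches across the start. At 6 h the counts were 11 of 19 and 8 of 21. Rpl6, the largest fall at 3 h, is among the 21, but its RefSeq entry seems to begin at the coding sequence, so the letters at its true start are not known here. Rps6, Rpl21 and Rps3 are also among the 21, and each holds a marked run that begins further before its RefSeq start. This split is a description of sequence letters, and no test was made.

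At 3 h after 1500 mg/kg the genes lay on the same side with fewer passing. There 4 of 50 genes fell and none rose, namely Rpl27, Rpl36 and Rpl32 of the large subunit and Rps13 of the small subunit, with 1.24% of all features lower in that comparison. The median of the 50 genes was -0.36, with 47 of 50 below 0. Every treated rat lay below every vehicle rat for 13 genes (3.77% of all features).

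Rpl27 ranged from -0.98 to -0.51 (median -0.72) at 1500 mg/kg, against -0.25 to 0.48 (median 0.09) in vehicle rats, with a difference of -0.84 ± 0.19 (SE; adjusted p = 0.0191). Its ranges did not meet. Rps13 ranged from -0.95 to 0.00 (median -0.44) at 1500 mg/kg and from -0.14 to 0.66 in vehicle rats, which overlapped, with a difference of -0.77 ± 0.21 (SE; adjusted p = 0.0411). Rpl6 and Rpl8 differed by more, -0.87 ± 0.25 and -0.85 ± 0.27 (SE), but missed the threshold (adjusted p = 0.0559 and 0.0818).

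The count at 1500 mg/kg hung on single rats and settings. It was 0 when any of 3 vehicle rats or 1 treated rat was left out, 1 when either of 2 other treated rats was, and at most 5 otherwise, while it was 15 when the rats of 3 h were fitted alone (2.97% of all features lower) and 25 with array weights (6.81%). Within the more frequent array kind at 3 h, which left 4 treated and 2 vehicle rats, no member passed at either dose and no other feature did (0.0%), with medians of -0.19 at 1500 mg/kg and -0.37 at 2000 mg/kg; with the array kind as a covariate 6 and 26 passed (1.94% and 8.58% of all features lower).

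At 150 mg/kg and 3 h no member passed, nor did any other feature (0.0%). At an unadjusted p under 0.05 there was 1 member (4.2% of all features), Rpl41, with a difference of 0.75 ± 0.24 (SE; adjusted p = 0.998). The median of the 50 genes was 0.06. The per-rat medians ran from -0.20 to 0.54 at 150 mg/kg, against -0.22 to 0.19 in vehicle rats. A single rat gave the value of 0.54, with T cell and B cell marker means of 0.60 and 0.49, and the next highest rat was at 0.16. Without that rat the median of the 50 genes was -0.02, the opposite sign.

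At 6 h after 2000 mg/kg the picture was close to that at 3 h in another set of rats with their own vehicle group. There 24 of the 50 genes fell and none rose, with 8.26% of all features lower. The median was -0.40, with 47 of 50 below 0, and over all features it was 0.02. Treated and vehicle rats were fully apart for 25 genes (6.96% of all features). Of the large subunit 12 of 30 fell (median -0.38) and of the small subunit 12 of 20 (median -0.48). The genes with fully separate rats were 13 of the large and 12 of the small subunit, so the cleaner separation of the large subunit at 3 h was not seen at 6 h. The small-subunit median ran from -0.57 to -0.42 per rat at 2000 mg/kg, against -0.12 to 0.08 in vehicle rats.

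Rpl5 again led, between -1.87 and -0.81 (median -1.55) at 2000 mg/kg and between -0.55 and 0.09 (median -0.35) in vehicle rats. The difference was -1.17 ± 0.28 (SE; adjusted p = 0.00415). Rpl8 was between -1.74 and -0.62 (median -1.44) at 2000 mg/kg, against -0.46 to 0.09 (median -0.26) in vehicle rats, a difference of -1.09 ± 0.27 (SE; adjusted p = 0.00502). For both genes the ranges were apart.

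Rps6 was between -1.44 and -0.63 (median -1.30) at 2000 mg/kg, against -0.28 to 0.10 (median -0.12) in vehicle rats, a difference of -1.09 ± 0.20 (SE; adjusted p = 0.000665). Rpl6 was between -1.40 and -0.75 (median -1.26) at 2000 mg/kg, against -0.34 to 0.17 (median -0.12) in vehicle rats, a difference of -1.05 ± 0.25 (SE; adjusted p = 0.00376). Neither gene had a treated rat within the vehicle range. Rpl11 differed by -0.33 ± 0.12 (SE; adjusted p = 0.0705), Rplp0 by -0.08 ± 0.15 (SE; adjusted p = 0.778) and Rpl13a by -0.35 ± 0.12 (SE; adjusted p = 0.0516).

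The genes that passed at 3 h and at 6 h were largely the same: 21 were shared, 80.8% of those at 3 h and 87.5% of those at 6 h. Only at 3 h passed Rpl10, Rpl28, Rpl29, Rps27l and Rps9, and only at 6 h Rps16, Rps25 and Rps3a, while 21 genes passed at neither. No member passed a test of the change between 6 h and 3 h (0.00681% of all features did). At an unadjusted p under 0.05 there were 0 members, against 4.26% of all features, and the median change was 0.03 (-0.03 to 0.07 when each rat was left out). Rps16, a small-subunit protein, changed most, by -0.41 ± 0.23 (SE; unadjusted p = 0.0811 from limma), and its 2 probes disagreed in size at 6 h, -0.49 and -1.26.

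**Figure D3:**
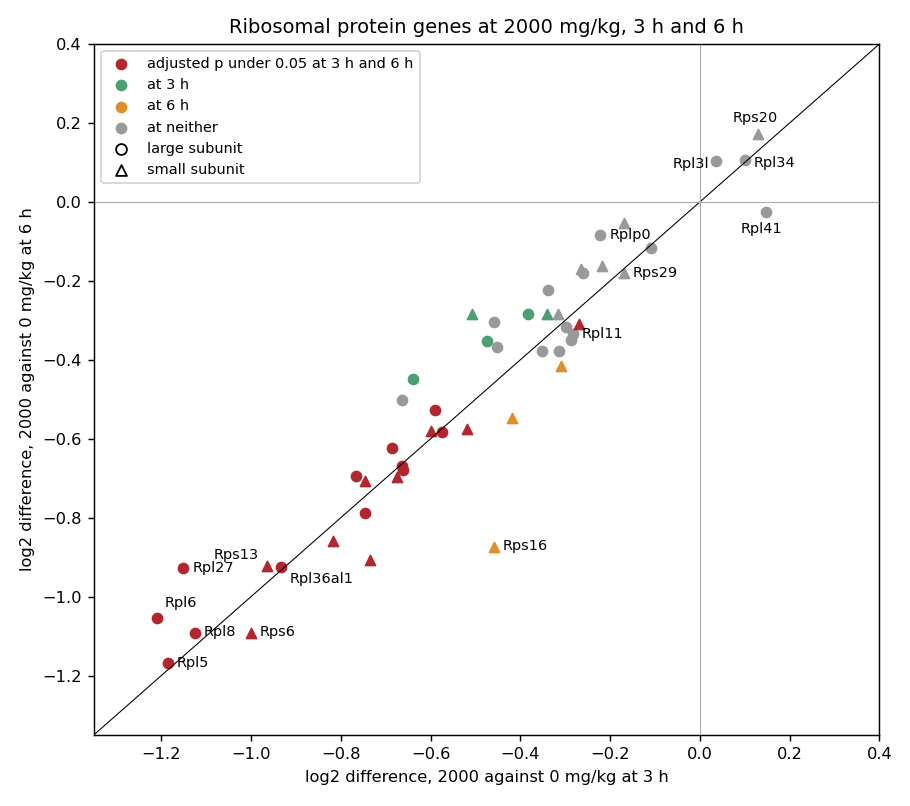
Log2 difference of each ribosomal protein gene at 2000 mg/kg from vehicle rats, at 3 h (x axis) and at 6 h (y axis), in separate sets of rats, circles for the large and triangles for the small subunit. Colour shows at which times the adjusted p was under 0.05, and the line marks equal values. The 21 genes passing at both times lie along the line down to Rpl5 (-1.19 and -1.17), and Rpl34, Rpl3l and Rps20 lie above 0 at both.

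At 6 h after 1500 mg/kg only Rps13 and Rpl36 passed, both lower (2 of 50, with 0.654% of all features lower). Rps13 was between -0.80 and 0.19 (median -0.60) at 1500 mg/kg, against 0.01 to 0.53 (median 0.49) in vehicle rats, a difference of -0.83 ± 0.21 (SE; adjusted p = 0.0455). Rpl36 was between -0.71 and 0.30 (median -0.54) at 1500 mg/kg, against -0.13 to 0.34 (median 0.26) in vehicle rats, a difference of -0.58 ± 0.15 (SE; adjusted p = 0.0479). In both genes the highest treated value, which lay within the vehicle range, came from the rat that stood apart.

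Without that rat 23 of the 50 genes fell, with 5.9% of all features lower in the same fit, and the median of the 50 was -0.42, against -0.34 with it. Rps13 then differed by -0.97 ± 0.21 (SE; adjusted p = 0.00305) and Rpl36 by -0.72 ± 0.15 (SE; adjusted p = 0.00234). With that rat every gene's ranges overlapped, so 0 of 50 genes had all treated below all vehicle rats (0.456% of all features). Leaving out any other rat of the comparison, treated or vehicle, left no gene past the threshold.

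Within the more frequent array kind at 6 h, 31 genes fell at 2000 mg/kg (5 treated and 5 vehicle rats, median -0.50, with 9.86% of all features lower) and 22 at 1500 mg/kg (2 treated and 5 vehicle rats, median -0.47, with 6.82% of all features lower). The restriction also left out the 1500 mg/kg rat that stood apart, so its count cannot be put down to the array kind. With the array kind as a covariate the counts were 24 and 1, with 8.41% and 0.927% of all features lower. At 150 mg/kg no member passed (0.0% of all features), and 1 had an unadjusted p under 0.05 (4.72% of all features). The median was 0.02 (-0.01 to 0.05 when each rat was left out). Per-rat medians ran from -0.19 to 0.14, against -0.13 to 0.09 in vehicle rats. The medians at 150 mg/kg split by array kind. They were -0.19, -0.12 and -0.07 in the 3 rats with both arrays of the kind holding the 500 features, and 0.09, 0.10 and 0.14 in the other 3. In the vehicle rats of 6 h the 1 rat with such arrays was at -0.11, within the range of the rest. The part of the array kind in these medians was not tested.

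A direct test of 2000 against 1500 mg/kg found no member at any time, and no other feature (0.0%). At an unadjusted p under 0.05 there were 2, 1 and 2 members at 3, 6 and 24 h, where 3.74%, 4.61% and 3.45% of all features reached that level. The medians of the 50 genes were -0.16, -0.13 and -0.04, with 46, 44 and 35 of 50 below 0. Leaving out each rat gave -0.21 to -0.11, -0.17 to -0.03 and -0.13 to 0.02. For Rpl6 the difference between the doses at 3 h was -0.34, with a 95% interval that ran from -0.84 to 0.15, so a fall of that size could not be told from none. At 6 h the median was -0.03 without the rat that stood apart.

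At 24 h no member passed at any dose, with 0.0%, 0.368% and 0.327% of all features lower at 150, 1500 and 2000 mg/kg. At an unadjusted p under 0.05 there were 0, 1 and 0 members (2.72%, 9.18% and 9.95% of all features). The medians of the 50 genes were -0.06, -0.05 and -0.11, and leaving out single rats took them from -0.10 to -0.03, from -0.09 to just above 0 and from -0.19 to -0.04. The largest difference at 2000 mg/kg was that of Rpl6, -0.36 ± 0.25 (SE; adjusted p = 0.681). Rpl5 differed by -0.34 ± 0.28 (SE; adjusted p = 0.755).

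At 24 h the rats given 1500 or 2000 mg/kg differed widely from each other. After 2000 mg/kg the per-rat medians of the 50 genes were -0.42, -0.35, -0.33, -0.23, 0.20 and 0.30, against -0.19 to 0.11 in vehicle rats. Thus 4 of 6 treated rats lay below every vehicle rat and the other 2 above every vehicle rat. After 1500 mg/kg they were -0.49, -0.30, -0.08, -0.07, 0.14 and 0.15. The SD of the per-rat medians at 24 h was 0.12 at 0 mg/kg, 0.12 at 150, 0.25 at 1500 and 0.31 at 2000 mg/kg. At 3 h it was 0.14, 0.27, 0.10 and 0.15, and at 6 h 0.08, 0.14, 0.27 and 0.07, in the same order of doses. The values of 0.27 belong to the groups with the single high rats described above, so a wide spread was not limited to 24 h, and the SDs were not compared by a test.

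Single genes spread more. Rpl5 ran from -1.44 to 0.73 (median -0.56) after 2000 mg/kg at 24 h and from -0.69 to 0.24 (median -0.02) in vehicle rats. Rpl8 ran from -1.50 to 0.71 after 2000 mg/kg and from -0.56 to 0.23 in vehicle rats. Each had treated rats on both sides of the vehicle range.

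**Figure D4:**
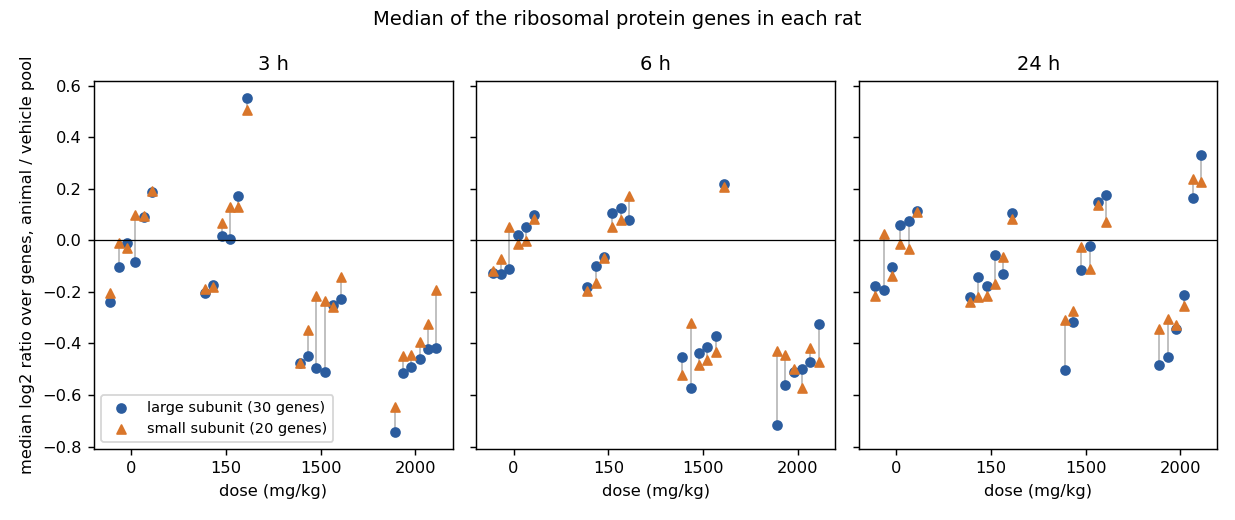
Median log2 ratio to the vehicle pool over the 30 large-subunit genes (circles) and the 20 small-subunit genes (triangles) of each rat, joined by a line, by dose (x axis) at 3, 6 and 24 h. At 3 h and 6 h the 2000 mg/kg rats lie below the vehicle rats apart from 1 small-subunit value at 3 h, 1 rat at 1500 mg/kg and 6 h lies at 0.22 and 0.21, and at 24 h the 2000 mg/kg rats lie on both sides of 0.

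Whether the effect of 2000 mg/kg changed with time was tested directly. From 3 h to 24 h only Rpl27 passed, its difference rising by 1.0 ± 0.27 (SE; adjusted p = 0.0269) to -0.15 at 24 h, against -1.15 at 3 h. In that test 2.34% of all features moved upward, 1 of 50 members passed and 24 had an unadjusted p under 0.05 (15.9% of all features), with a median change of 0.40. From 6 h to 24 h only Rps16 passed, by 0.88 ± 0.23 (SE; adjusted p = 0.0183), to 0.01 at 24 h against -0.87 at 6 h. There 3.0% of all features moved upward, 21 members had an unadjusted p under 0.05 (17.3% of all features) and the median change was 0.37. Both genes are named because they were the only ones to pass. Each call was lost without single rats: the first without any of 6 rats, the second without either 24 h rat with a positive median at 2000 mg/kg.

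The genes moved together from rat to rat within groups to a varying degree. After group means were taken off, the correlation of a gene with the median of the other 49 over the rats had a median of 0.67. It was over 0.8 for 17 genes, with Rps19 highest at 0.94, followed by Rpl36al1 and Rpl9 at 0.93, and under 0.3 for 10 genes. Those 10 were Rps20 (-0.40), Rpl34 (-0.22), Rpl3l (-0.20), Rps3, Rpl41, Rps29, Rpl37l1, Rpl39, Rps24 and Rpl4. Among them, Rps20, Rpl34 and Rps3 are the members whose probes were annotated to no RefSeq transcript. The genes of a rat were read on the same 2 arrays, and rats share pools and array kinds, so the correlations are a description. Rpl34 had exact zeros, read as missing, on 9 of 144 arrays, and 54 of the 56 probes had none.

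Other genes of protein synthesis were set beside them as lists. Of 14 measured genes with TOP messenger RNAs that the choice by name did not take in, 5 fell at 3 h after 2000 mg/kg (median -0.43) and 4 at 6 h (median -0.37). They were the elongation factor subunits Eef1b2 (-1.24 and -1.24) and Eef1g (-0.80 and -0.79), the nucleolar chaperone Npm1 (-1.37 and -1.26) and the RNA-binding protein Hnrnpa1 (-1.29 and -1.23) at both times, and the initiation factor subunit Eif3l at 3 h (-0.45). Over all features 8.32% fell at 3 h and 8.26% at 6 h. Eef1a1, Eef2, Tpt1 and Btf3 differed by -0.08, -0.05, 0.06 and 0.005 at 3 h and by 0.09, -0.19, 0.04 and -0.07 at 6 h. Naca, Eif3e, Eif4b and Vim were lower, and none of these genes passed. One of the 14, Rpsa, encodes a small-subunit ribosomal protein whose symbol holds no digit. It differed by -0.39 ± 0.15 at 3 h and -0.28 ± 0.15 at 6 h (SE; limma, adjusted p = 0.0955 and 0.262).

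Of 41 mitochondrial ribosomal proteins, which build the separate ribosome of mitochondria, 11 fell at 3 h (median -0.14) and 9 at 6 h (median -0.22). Of 26 ribosome biogenesis genes 8 fell at each time (medians -0.11 and -0.15), with Tsr1, a factor in 40S maturation, lowest at -1.18 and -1.17. At 24 h no gene of these lists passed. The differences between lists were not tested.

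Most measured markers of lymphocytes were lower in the same groups. For the counts that follow, 8.32% of all features fell at 3 h and 8.26% at 6 h after 2000 mg/kg. At 24 h 72 of 14678 features rose, and 2.34% moved upward from 3 h to 24 h. Of 10 measured T cell markers 6 fell at 3 h and 6 at 6 h after 2000 mg/kg (medians -0.90 and -0.83), and of 6 B cell markers 4 fell at each time (medians -1.10 and -0.75). Cd3e, Cd3d and Cd8a hardly differed (-0.02, -0.04 and -0.01 at 3 h, -0.01, 0.01 and -0.05 at 6 h), nor did the B cell marker Fcer2 (-0.02 and 0.01). The SEs of these markers were 0.03 to 0.05 at 3 h, against 0.19 to 0.32 for the other T cell markers and 0.15 to 0.34 for the other B cell markers. They thus varied little among rats of a group, and whether their probes follow the cell type was not tested. The mean over T cell markers ran from -1.16 to -0.52 per rat at 3 h and from -0.95 to -0.43 at 6 h after 2000 mg/kg, against -0.27 to 0.05 and -0.19 to 0.09 in vehicle rats. Of 7 monocyte markers 4 fell at 3 h, 2 fell at 6 h and 1, Fcgr1a, rose at 24 h (0.90, the marker named because it was the only one to pass), and the differences of 4 moved upward between 3 h and 24 h by the direct test (limma, adjusted p under 0.05). At 3 h and 6 h the monocyte markers had means of -1.13 to -0.69 and -1.32 to -0.26 per rat after 2000 mg/kg, against -0.46 to 0.12 and -0.33 to 0.13 in vehicle rats. Not every monocyte marker was lower: Cd14, Csf1r and Cd68 differed by 0.05, 0.18 and 0.10 at 3 h and by 0.01, 0.15 and 0.01 at 6 h, and none of these passed. Cd14 also varied little, with an SE of 0.05 at 3 h, against 0.17 for Csf1r and 0.19 for Cd68.

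Markers of other blood cells were read in the same way. After 2000 mg/kg 134 of 14678 features rose at 3 h, and 0.327% fell at 24 h. The mean over 9 neutrophil markers ran from -0.38 to -0.05 per rat at 3 h after 2000 mg/kg, against -0.15 to 0.17 in vehicle rats. The medians of these per-rat means were -0.28 and -0.01, and the ranges overlapped. At 6 h it ran from -0.06 to 0.22 at 2000 mg/kg and from -0.24 to 0.17 in vehicle rats, and at 24 h from 0.26 to 1.11 at 2000 mg/kg and from -0.18 to 0.30 in vehicle rats. None of 7 erythroid and reticulocyte markers passed at 3 h or 6 h (medians of the marker differences 0.12 and 0.05), and 1 was lower at 24 h (median -0.31). Of 9 neutrophil markers 2 were lower at 3 h (Ncf4 and Fcgr3a), 1 at 6 h (Fcgr3a) and 2 higher at 24 h (S100a9 and Mmp8). The medians of their marker differences were 0.01, 0.07 and 0.01. At 24 h Cxcr2, Ncf1, Mmp9 and Lcn2 differed by -0.07, -0.04, 0.01 and -0.10, so the higher means did not hold for every marker. Of 5 platelet markers 1 was higher at 3 h and none passed at 6 h or 24 h. At 24 h after 2000 mg/kg the T cell means of the rats, in the order of their ribosomal medians given above, were -1.07, -0.37, -0.88, -0.10, 0.04 and 0.33. After 1500 mg/kg they were -1.29, -1.11, -0.27, -0.21, -0.04 and 0.27. The part of these cell markers in the values of the ribosomal protein genes was not tested.

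**Figure D5:**
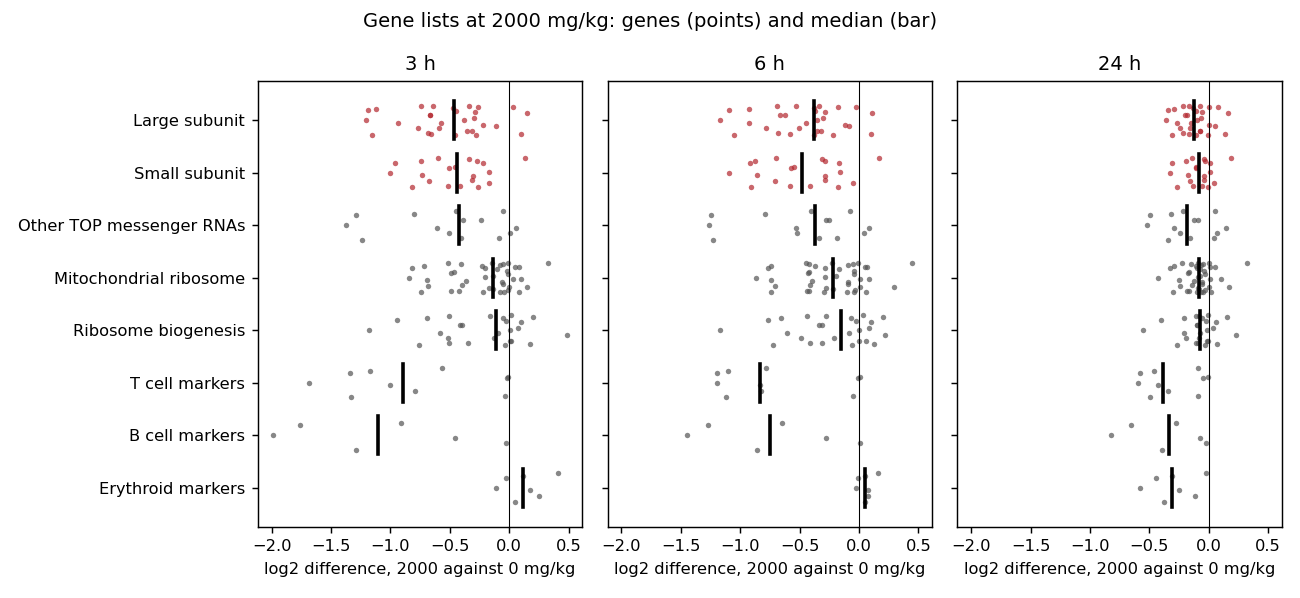
Log2 difference at 2000 mg/kg from vehicle rats at 3, 6 and 24 h (x axis) of each gene (points) in 8 lists, with the list median as a bar. The large and small subunit medians at 3 h are -0.47 and -0.44, those of T cell and B cell markers -0.90 and -1.10, and that of erythroid markers 0.12; the medians of all 8 lists lie nearer to 0 at 24 h than at 3 h except that of the erythroid markers (-0.31).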

How the data were processed

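The authors deposited a table of log ratios for 144 arrays, taken here as log10 of Cy5 over Cy3; their scale, direction, background correction and normalization, like the scanner software, are not stated (not given in the sources used here), and both rest on the number format and the convention of scanner log ratio columns. Dose came from the authors' deposited key of animal numbers (19 had lost zeros and were matched on the remaining digits; 72 of 72 times matched the labels), and time and dye from the labels.

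Signs were turned to rat over pool, exact zeros (2.39 to 18.4% per array) were set missing, and the 2 arrays of a rat were averaged on the log2 scale. Features missing on 91 arrays (500 of 22075) were left out. Probes of 1 symbol were averaged, and a feature needed a value in 4 of 6 rats per group. Probe names came from the platform annotation, and 12720 of 12750 probes with 1 symbol matched RefSeq. Differences were tested with limma 3.58.1 (R 4.3.3; prior degrees of freedom 2.37; statmod 1.5.0 for the random block) in 1 fit of 12 group means over 72 rats, two-sided, adjusted by Benjamini-Hochberg over 14678 features, threshold 0.05. Summaries were made with pandas 2.3.3 and numpy 2.4.6 (Python 3.11.15) and plots with matplotlib 3.10.9. The number of rats limits the precision.

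The members, lists and rule were chosen with earlier results of these data known. Rat by rat values are given for the 4 largest differences that passed at 2000 mg/kg and the 2 largest at 1500 mg/kg at each time, and members with a set role or paralogue name, or with a sign against the median, are also described; other members were named after their values were seen. The fit was tested on simulated data.

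Alternatives were 1 dye orientation, centring, zeros kept, complete values, single probes, array kind as covariate or restriction, array weights, single arrays, the pool as reference, single times and leaving out each rat.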

Additional observations from a re-analysis of the deposited data

Results flagged for a closer look

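Across 96 sets of 6 rats (the median of the 50 genes and 7 single genes in each of the 12 groups), a gap to the next rat above Dixon's critical share of the group's range marked 12 sets, where chance alone marks about 1 in 20. Of these 7 rest on the same rat of the 1500 mg/kg group at 6 h, highest each time: its median was 0.21, and it was at 0.34 for Rpl27 (the next rat at -0.75), 0.30 for Rpl36, 0.33 for Rpl5 (the next at -1.04), 0.28 for Rpl6 (the next at -1.03), 0.38 for Rpl8 (the next at -0.89) and 0.21 for Rps6 (the next at -0.95).

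The other 5 were spread over other groups. At 24 h and 150 mg/kg 1 rat had a median of 0.10 (the next at -0.13), and 1 had Rps6 at 0.15 (the next at -0.20). At 6 h after 2000 mg/kg 1 rat had Rps6 at -0.63 (the next at -1.16) and 1 had Rps13 at -0.83 (the next at -0.59), and 1 vehicle rat of 6 h had Rpl27 at 0.40 (the next at 0.08).

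In direct tests with limma the 2000 mg/kg difference of Rpl27 changed between 3 h and 24 h by 1.0 (adjusted p = 0.0269) and that of Rps16 between 6 h and 24 h by 0.88 (adjusted p = 0.0183).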

How the results depend on the processing

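For the 6 comparisons with a reported count of ribosomal protein genes above 0, that count stayed within 1.5 times in 32 of 54 alternatives, and leaving out a single rat moved it further in 38 of 96 cases. For the 9 with a count of 0 it stayed at 0 in 68 of 72 alternatives, which says little about stability. At 2000 mg/kg and 3 h (26) the exception was the restriction to 1 array kind (0). At 2000 mg/kg and 6 h (24) it was the pool in place of the vehicle rats (37, of which 36 lower). Leaving out each rat gave 20 to 29 and 22 to 25.

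At 1500 mg/kg and 3 h (4) the count was 2 with either dye alone, 1 with zeros kept, 7 with complete values, 25 with array weights, 24 with single arrays, 29 against the pool, 15 with that time alone and 0 within 1 array kind. Leaving out each rat gave 0 to 5. At 1500 mg/kg and 6 h (2) it was 0 with either dye alone and with zeros kept, 4 with complete values, 1 with the array kind as a covariate, 26 with array weights, 23 with single arrays, 29 against the pool, 6 with that time alone, 22 within 1 array kind and 1 with each probe alone. Leaving out each rat gave 0 to 23. The causes were not tested, except that the 2 dye settings hold 1 array per rat and the restriction fewer rats. Against the pool a group mean is compared with 0, so the uncertainty of the vehicle mean is left out of the SE. At 1500 mg/kg and 6 h the restriction leaves out the rat that stood apart.

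At 24 h, where none passed, the pool gave 3 lower at 2000 mg/kg, 1 higher at 1500 mg/kg and 2 (1 lower, 1 higher) at 150 mg/kg, and single arrays gave 1 higher at 1500 mg/kg. The change of the 2000 mg/kg difference from 3 h to 24 h (1) ranged from 0 to 3 when each rat was left out, and that from 6 h to 24 h (1) from 0 to 6. The 0 came without any of 2 vehicle rats of 3 h, 1 vehicle rat of 24 h, 1 treated rat of 3 h or 2 treated rats of 24 h in the first, and without either of those 2 in the second; without 1 other treated rat of 24 h the counts were 3 and 6.

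The 7 genes given rat by rat kept their direction under every alternative run. At 2000 mg/kg their calls were lost only within 1 array kind at 3 h. No paired analysis was possible because animal numbers are unique to a group. The 6 rats per group and 2 arrays per rat limit the precision.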
